A study of Mus musculus with 7 samples.

Results

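Solute carriers are membrane proteins that move nutrients, metabolites, ions and metals across the plasma membrane and the membranes of organelles, and their genes carry symbols that begin with Slc. T cells that grow or become activated are known for raising carriers of amino acids, lactate and iron, and a separate mitochondrial family, Slc25, exchanges metabolites between the cytosol and the mitochondrial matrix. The Slc genes, without the glucose carriers Slc2a1 and Slc2a3, were read here in sorted thymic T cells and compared by what their proteins carry. A gene was a member if its symbol began with Slc and a digit. It was tested if its brightest probe set reached an intensity of 82.0 in 2 or more of the 7 arrays. Of 345 such genes on the array, in 51 families, 189 were tested, in 44 families, among 10874 genes tested in all. The other 156 stayed under the threshold. Of the 189, 184 encode carriers by their family, and 5 hold the letters Slc in a symbol that names no carrier and were kept apart.

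The arrays fell into 3 groups. All mice had a C57BL/6J background and were 4 to 6 weeks of age. Luxoid NKT (n = 3) were stage 1 natural killer T cells, an early step of this lipid-recognising T cell lineage, from Luxoid mutants that lack the transcription factor PLZF and that also carried a Valpha14 T cell receptor transgene. Stage 1 NKT (n = 2) were the same sort from mice with the Valpha14 transgene and normal PLZF. Both were sorted as CD1d tetramer-binding, CD24-low cells without CD44 and NK1.1. CD4SP (n = 2) were thymocytes with CD4 and without CD8 from wild-type mice. Each sample came from pooled mice and is called a biological replicate by the submitters. CD4SP mice lacked the transgene, so that cell type and transgene cannot be told apart in comparisons with them. RNA was amplified and hybridised to Affymetrix Mouse Genome 430 2.0 arrays, which read the transcript and not the carrier protein.

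Array medians were 79.6 to 83.7, and arrays of 1 group correlated at r = 0.984 to 0.992 over all probe sets. The transcript of Zbtb16, the gene of PLZF, read 1857 to 2774 in Luxoid NKT, 2751 and 3488 in stage 1 NKT, and 61.8 and 87.3 in CD4SP. Since the array does not see the protein, this does not check the mutation. A label of the CD4SP samples repeats the NKT sort, whereas their Zbtb16 and Cd4 levels (5824 and 6754 for Cd4, against 1888 to 2360 in the 5 NKT arrays) stood apart from both NKT groups. The summed level of 6 markers of other thymocytes was 374 to 539 in Luxoid NKT, 278 and 282 in stage 1 NKT, and 1131 to 1245 in CD4SP. The highest of these in CD4SP were Dntt, at 461 and 527, and Cd8b1, at 223 and 268. The sum of 3 B cell markers was 126 to 165 in Luxoid NKT, 138 to 151 in stage 1 NKT, and 199 to 216 in CD4SP, with Ms4a1 and Ebf1 under the threshold in every array. The sum of 5 myeloid and dendritic markers was 305 to 330, 324 to 365, and 397 to 422 in the same order, with Lyz2, Itgax and Csf1r under the threshold in every array. That of 4 thymic epithelium markers was 260 to 356, 208 and 238, and 276 to 329, with Foxn1, Psmb11 and Krt8 under it. The part of these markers in the results below was not tested. Within every group the pools were of unlike sex, since the Y-linked gene Kdm5d read 6.49 to 11.7 in the arrays numbered 1 and 758 to 2331 in the others. Luxoid array 3 and stage 1 NKT array 2 held transcripts of both sexes. In bulk samples fewer cells of a type and less RNA per cell cannot be told apart.

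Between the NKT groups the carriers differed at no higher a rate than all genes, and with 3 against 2 arrays small differences can be missed. Of 189 Slc genes 1 passed the test (adjusted p under 0.05 by limma over all 10874 genes), higher in Luxoid NKT, which is 0.529% of the Slc genes against 1.55% of all genes tested (0.901% higher and 0.653% lower). At an unadjusted p under 0.05 there were 17, 5 higher and 12 lower, against 11.6% of all genes. The arrays of the NKT groups did not overlap for 46 Slc genes (24.3%) and for 26.7% of all genes. The median difference, Luxoid NKT minus stage 1 NKT, was -0.03 on the log2 scale for the Slc genes and -0.03 for all genes. The quartiles of the Slc genes were -0.21 and 0.11, and none of the 189 differed 2-fold or more, against 1.58% of all genes. The largest differences were -0.96 and 0.94. No class of carriers stood out in its median, which ran from -0.19 in the 3 nucleoside carriers to 0.11 in the 21 carriers of inorganic ions and urea.

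Against CD4SP the carriers differed at about the rate of other genes. In stage 1 NKT minus CD4SP 19 Slc genes rose and 7 fell (13.8%, against 14.9% of all genes, of which 10.8% rose and 4.08% fell). In Luxoid NKT minus CD4SP 20 rose and 11 fell (16.4%, against 16.8% of all genes, of which 11.3% rose and 5.51% fell). Both comparisons use the same CD4SP arrays, and for some genes only the comparison that passed is given below. Stage 1 NKT minus CD4SP did not pass but was -0.63 for Slc38a9, -0.76 for Slc16a6, 0.61 for Slc9b2 and -0.49 for Slc25a27. It was -0.24 for Slc20a1, -0.45 for Slc35b3 and 0.32 for Slc35e1. Luxoid NKT minus CD4SP did not pass but was 0.31 for Slc10a3, 0.37 for Slc39a4 and -0.53 for Slc2a4rg-ps. Each of these log2 differences had the sign of the comparison that passed. The Slc medians were 0.04 and -0.00337, against 0.06 and 0.02 for all genes. At an unadjusted p under 0.05 there were 53 and 66 of the 189 Slc genes, against 29.1% and 29.7% of all genes. The arrays of the groups did not overlap for 114 Slc genes in stage 1 NKT minus CD4SP (60.3%, against 60.2% of all genes) and for 91 in Luxoid NKT minus CD4SP (48.1%, against 46.0%). At least 2-fold differences were found for 12 Slc genes (6.35%, against 7.53% of all genes) and for 15 (7.94%, against 7.66%). In both comparisons the share of Slc genes that passed was thus near that of all genes tested. Leaving out both pools of mixed sex leaves 1 stage 1 NKT array, which is assumed to vary like the other groups. Calls in that setting are therefore not read as support. Slc25a13, Slc29a1 and Slc9a7 entered the test through their NKT arrays alone, so their calls against CD4SP are no support in any setting.

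**Figure D1:**
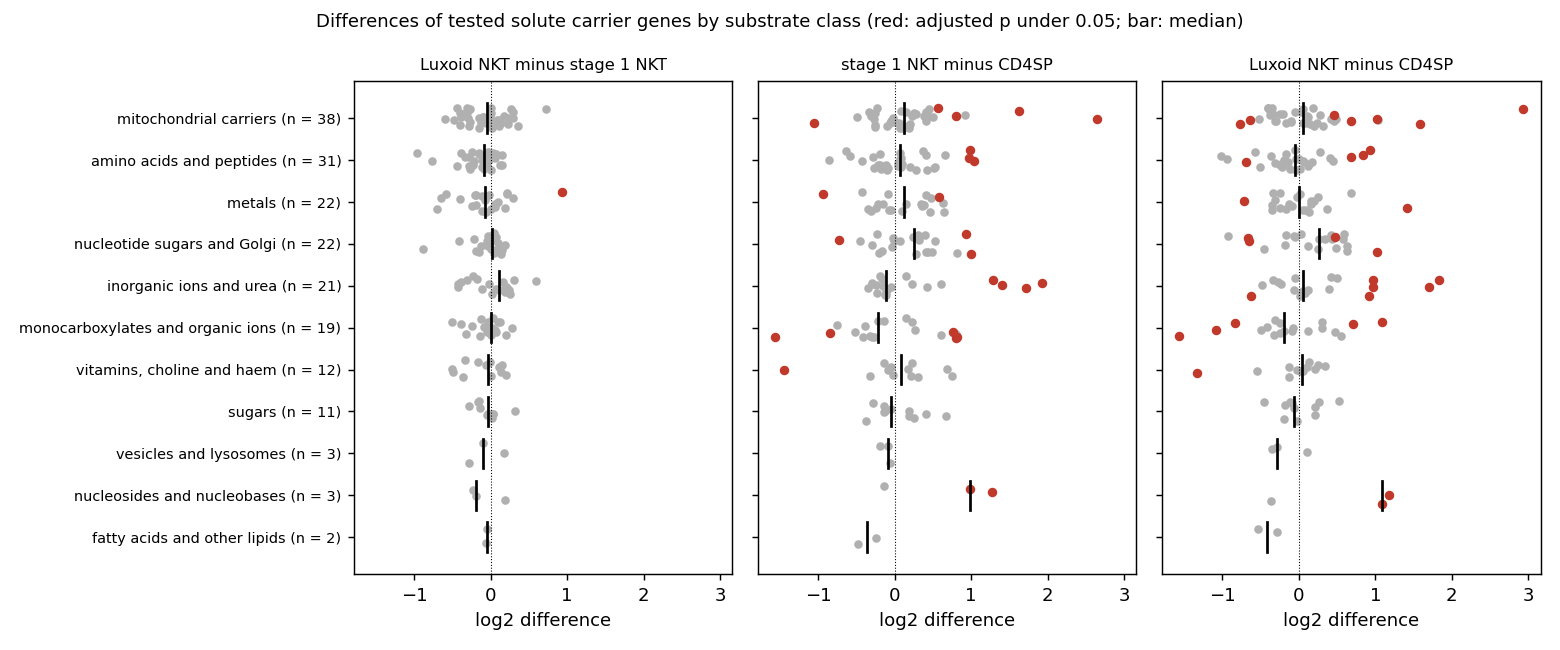
Each point is a tested carrier gene, placed by its log2 difference (horizontal axis) in the row of its substrate class, with 1 panel per comparison; red points passed an adjusted p of 0.05 and the bar is the class median. A single red point, at 0.94 in the row of metals, stands in the panel of Luxoid NKT minus stage 1 NKT, against 25 carriers in stage 1 NKT minus CD4SP and 31 in Luxoid NKT minus CD4SP.

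Among 22 tested metal carriers, Slc11a2 was the gene that passed between the NKT groups, where 1.55% of all genes passed. It encodes DMT1, a proton-coupled carrier that moves iron out of endosomes after transferrin uptake. Its intensity was 772, 992 and 958 in Luxoid NKT, against 506 and 437 in stage 1 NKT. In CD4SP it was 370 and 309, so that every Luxoid array lay above every stage 1 NKT array and these above both CD4SP arrays. The difference from stage 1 NKT was 0.94 ± 0.17 on the log2 scale (SE; 95% interval 0.56 to 1.32), or 1.92-fold, with an adjusted p of 0.0317. It was 2.67-fold higher in Luxoid NKT than CD4SP (1.41 ± 0.17, adjusted p = 0.000726), a call that held whichever array was left out. Stage 1 NKT minus CD4SP was 0.48 ± 0.18 (adjusted p = 0.125).

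The call of Slc11a2 between the NKT groups was narrow. It was lost without Luxoid array 2 (adjusted p = 0.0701) or 3 (0.107), without stage 1 NKT array 1 (0.153) or 2 (0.344), without either CD4SP array (0.0635), and in a fit blocked on replicate number (0.90, 0.0853). Leaving out a stage 1 NKT array leaves that group with 1 array, and its spread is then taken from the other groups. The same holds with both pools of mixed sex left out, a setting chosen after the data were seen, where the difference was 0.79 (adjusted p = 0.670). The gene has 4 probe sets with a single symbol, and all read higher in Luxoid NKT. Tested by itself over 20360 probe sets, the brightest gave 0.94 (adjusted p = 0.0469). The next gave 0.80 ± 0.23 (adjusted p = 0.209), from 587, 765 and 987 in Luxoid NKT against 402 and 479 in stage 1 NKT. The third gave 0.54 ± 0.22 (0.430) and the dimmest 0.58 ± 0.17 (0.233), with non-overlapping NKT groups in each. With the mean of the probe sets the difference was 0.71 (adjusted p = 0.0196).

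**Figure D2:**
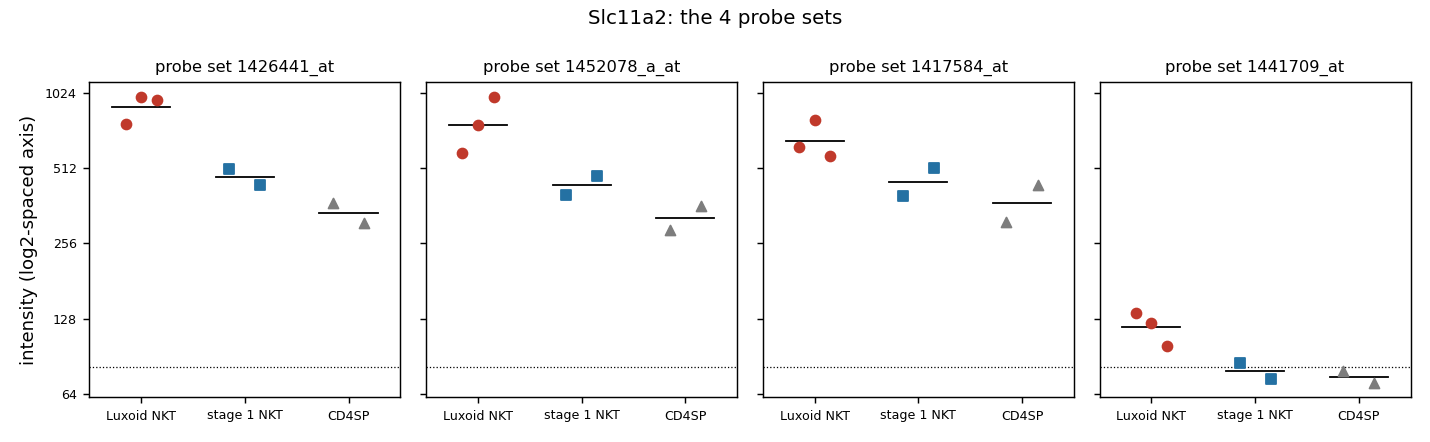
Intensity of the 4 probe sets of Slc11a2 (vertical axis, log2-spaced) in every array, with 1 point per array, a black bar at the geometric mean and a dotted line at the threshold of 82.0. In all 4 panels the 3 Luxoid NKT arrays lie above the 2 stage 1 NKT arrays, and the smallest gap is in the panel of the third probe set, at 574 against 515.

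Genes that handle iron beside Slc11a2 were read from a list of transporter partners. Of its 8 tested genes 1 rose and 1 fell in stage 1 NKT minus CD4SP, where 10.8% of all genes rose and 4.08% fell. In Luxoid NKT minus CD4SP 2 rose and 1 fell, where 11.3% rose and 5.51% fell. The ferritin gene Fth1 had geometric means of 5900 in Luxoid NKT, 6028 in stage 1 NKT and 6015 in CD4SP, and passed in no comparison. Steap3, the endosomal reductase that supplies ferrous iron to DMT1, read 532, 639 and 692 in Luxoid NKT, 409 and 439 in stage 1 NKT, and 113 and 102 in CD4SP. It was higher than in CD4SP in Luxoid NKT (2.52 ± 0.15, adjusted p = 2.01e-05) and in stage 1 NKT (1.98 ± 0.17, adjusted p = 0.000162), in both cases whichever array was left out. Luxoid minus stage 1 NKT was 0.54 ± 0.15 (adjusted p = 0.179). Tfrc, the transferrin receptor, read 1772, 1420 and 2147 in Luxoid NKT, 1836 and 1055 in stage 1 NKT, and 1119 and 788 in CD4SP, and passed in no comparison (adjusted p = 0.0582 for Luxoid NKT minus CD4SP). The iron exporter Slc40a1 and the phagosomal metal carrier Slc11a1 stayed under the threshold and were not tested.

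The other metals that changed were copper and zinc. Slc31a2, a copper carrier of endosomes, was 1.65-fold lower in Luxoid NKT than CD4SP (-0.72 ± 0.19, adjusted p = 0.0339) and 1.91-fold lower in stage 1 NKT than CD4SP (-0.94 ± 0.21, adjusted p = 0.0190). It read 246, 253 and 223 in Luxoid NKT, 167 and 256 in stage 1 NKT, and 411 and 381 in CD4SP. The zinc importer Slc39a4 was at least 1.20-fold higher in stage 1 NKT, at 90.6 and 106, than in CD4SP, where both arrays were under the threshold (0.58 ± 0.15, adjusted p = 0.0389). It entered the test through its NKT arrays alone, so this call is no support. A fold is written as at least N where all arrays of the lower group read under 82.0, which then stands in for that group. Slc39a10, a zinc importer of lymphocytes, did not pass (0.68 ± 0.31 for Luxoid NKT minus CD4SP, adjusted p = 0.183). Both calls of Slc31a2 were lost without either CD4SP array, without stage 1 NKT array 1 in stage 1 NKT minus CD4SP (0.0852 to 0.113 in all), and without Luxoid array 1 or 3 in Luxoid NKT minus CD4SP (0.0645 to 0.174). That of Slc39a4 was lost without Luxoid array 3 or any stage 1 NKT or CD4SP array (0.0545 to 0.187) and with a pseudocount of 32 (0.0703).

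Mitochondrial carriers held the largest change of any Slc gene. Of 38 tested, 4 rose and 1 fell in stage 1 NKT minus CD4SP, and 5 rose and 2 fell in Luxoid NKT minus CD4SP, with class medians of 0.13 and 0.06. Of all genes, 10.8% rose and 4.08% fell in the first, and 11.3% rose and 5.51% fell in the second. Slc25a24, a calcium-regulated carrier that exchanges ATP-magnesium for phosphate, read 1531, 997 and 944 in Luxoid NKT, 1024 and 830 in stage 1 NKT, and 150 and 145 in CD4SP. It was 7.64-fold higher in Luxoid NKT than CD4SP (2.93 ± 0.22, adjusted p = 5.84e-05). In stage 1 NKT it was 6.23-fold higher than in CD4SP (2.64 ± 0.24, adjusted p = 0.00023). The NKT groups overlapped (0.29 ± 0.22, adjusted p = 0.691), and both calls against CD4SP held whichever array was left out.

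The paralogs Slc25a12 and Slc25a13 both encode aspartate-glutamate carriers of the malate-aspartate shuttle, and they differed in opposite directions. Slc25a13 read 89.2, 94.4 and 99.9 in Luxoid NKT, 87.3 and 108 in stage 1 NKT, and 29.6 and 33.6 in CD4SP. It was at least 1.15-fold higher in Luxoid NKT than CD4SP (1.58 ± 0.15, adjusted p = 0.00022) and at least 1.18-fold higher in stage 1 NKT than CD4SP (1.62 ± 0.16, adjusted p = 0.000375), whichever array was left out. Slc25a13 entered the test through its NKT arrays alone, so these calls are no support and its values stand as a description. Slc25a12 read 580, 431 and 411 in Luxoid NKT, 293 and 276 in stage 1 NKT, and 651 and 539 in CD4SP. It was 2.08-fold lower in stage 1 NKT than CD4SP (-1.06 ± 0.20, adjusted p = 0.00919), while Luxoid NKT minus CD4SP was -0.34 ± 0.18 (adjusted p = 0.258). Luxoid NKT minus stage 1 NKT was 0.72 ± 0.18 (adjusted p = 0.126), with no overlap between the NKT arrays, and reached 0.0464 with a covariate for Y-linked expression. The fall in stage 1 NKT was lost without CD4SP array 1 or either stage 1 NKT array (0.0583 to 0.0713).

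Promoter windows are shown for these paralogs and for Slc25a24 and Slc9a9, which had the largest rises among mitochondrial and among ion carriers in stage 1 NKT minus CD4SP. Each is RefSeq sequence of GRCm38.p6, 250 bases before to 50 bases after the annotated start, on the strand of the gene. Capitals mark matches to the E-box CACGTG, the CCAAT box, the GC box GGGCGG, the cyclic AMP response element TGACGTCA or the Egr site GCGTGGGCG, searched on both strands.
Slc25a12, chr2:71367706-71368005, minus strand: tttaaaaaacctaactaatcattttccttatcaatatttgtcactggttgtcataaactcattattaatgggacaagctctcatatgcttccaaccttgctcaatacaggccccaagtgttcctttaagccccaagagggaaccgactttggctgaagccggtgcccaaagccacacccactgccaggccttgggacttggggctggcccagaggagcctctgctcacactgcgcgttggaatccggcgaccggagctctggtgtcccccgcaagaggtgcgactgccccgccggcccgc
Slc25a13, chr6:6217124-6217423, minus strand: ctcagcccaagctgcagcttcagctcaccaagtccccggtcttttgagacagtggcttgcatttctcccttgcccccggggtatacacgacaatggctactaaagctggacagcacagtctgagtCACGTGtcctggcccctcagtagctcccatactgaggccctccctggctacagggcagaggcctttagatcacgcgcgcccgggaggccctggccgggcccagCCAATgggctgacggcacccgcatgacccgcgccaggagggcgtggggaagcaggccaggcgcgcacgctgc
Slc25a24, chr3:109122899-109123198, plus strand: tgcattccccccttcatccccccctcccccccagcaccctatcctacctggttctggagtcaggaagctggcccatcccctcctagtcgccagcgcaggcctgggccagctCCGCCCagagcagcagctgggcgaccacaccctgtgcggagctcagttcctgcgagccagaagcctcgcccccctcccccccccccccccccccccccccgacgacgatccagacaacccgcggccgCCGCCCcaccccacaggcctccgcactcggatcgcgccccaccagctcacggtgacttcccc
Slc9a9, chr9:94669642-94669941, plus strand: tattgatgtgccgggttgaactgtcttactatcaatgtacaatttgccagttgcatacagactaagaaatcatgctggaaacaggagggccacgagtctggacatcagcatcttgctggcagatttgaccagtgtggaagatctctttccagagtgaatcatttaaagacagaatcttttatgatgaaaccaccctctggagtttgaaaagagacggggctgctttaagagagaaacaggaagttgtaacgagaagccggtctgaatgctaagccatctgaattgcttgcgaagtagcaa
The window of Slc25a13 holds an E-box at -125 and a CCAAT box at -22 from the start, counted to the first letter of the match, and that of Slc25a24 holds GC boxes on the opposite strand at -139 and -12. Those of Slc25a12 and Slc9a9 hold none of the 5 motifs. Of all 32851 RefSeq windows of this length, 7.15% hold the E-box, 37.4% the CCAAT box, 35.7% the GC box, 1.79% the cyclic AMP response element and 0.612% the Egr site. Among the 199 windows of tested Slc genes these shares are 14.1%, 33.7%, 68.8%, 2.01% and 4.02%. The 2 sets are not alike, since the RefSeq windows also cover genes that did not reach the intensity threshold. The shares are therefore not read as a trait of Slc genes, and what they reflect was not tested. RefSeq windows were given for 149 of the 189 Slc genes.

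Other mitochondrial carriers changed by less. Slc25a33, a pyrimidine nucleotide carrier, read 264, 200 and 210 in Luxoid NKT, 201 and 181 in stage 1 NKT, and 101 and 119 in CD4SP. It was 2.04-fold higher in Luxoid NKT than CD4SP (1.03 ± 0.17, adjusted p = 0.00372) and 1.74-fold higher in stage 1 NKT than CD4SP (0.80 ± 0.18, adjusted p = 0.0206). The oxoglutarate carrier Slc25a11 was 1.60-fold higher in Luxoid NKT than CD4SP (0.68 ± 0.13, adjusted p = 0.00778) and 1.49-fold higher in stage 1 NKT than CD4SP (0.57 ± 0.14, adjusted p = 0.0287). Slc25a27, also called UCP4, was 1.70-fold lower in Luxoid NKT, at 166, 145 and 115, than in CD4SP, at 254 and 225 (-0.77 ± 0.18, adjusted p = 0.0203). The calls of Slc25a33 and Slc25a11 in stage 1 NKT minus CD4SP were lost without any 1 of the stage 1 NKT or CD4SP arrays (0.0615 to 0.136 and 0.0879 to 0.136). In Luxoid NKT minus CD4SP that of Slc25a11 was lost without CD4SP array 1 (0.0668), and that of Slc25a27 without CD4SP array 1 (0.135) or 2 (0.0804). Slc25a5, the main ADP/ATP carrier of dividing cells, read 3490 to 5022 in Luxoid NKT, 5714 and 4410 in stage 1 NKT, and 3729 and 3376 in CD4SP, and passed in no comparison. The citrate carrier Slc25a1 did not pass either (0.48 ± 0.15 for Luxoid NKT minus CD4SP, adjusted p = 0.0606), but did with 4 of the alternatives (0.0349 to 0.0480).

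Of 21 tested carriers of inorganic ions and urea, 4 rose and none fell in stage 1 NKT minus CD4SP, where 10.8% of all genes rose and 4.08% fell. In Luxoid NKT minus CD4SP 5 rose and 1 fell, where 11.3% of all genes rose and 5.51% fell. Over all 21 members the median was -0.11 with 8 above 0 in stage 1 NKT minus CD4SP, and 0.06 with 14 above 0 in Luxoid NKT minus CD4SP. The medians of all genes were 0.06 and 0.02. Slc9a9, a sodium-proton exchanger of endosomes, read 1148, 968 and 1034 in Luxoid NKT, 1312 and 1147 in stage 1 NKT, and 325 and 321 in CD4SP. It was 3.25-fold higher in Luxoid NKT than CD4SP (1.70 ± 0.14, adjusted p = 0.000104) and 3.80-fold higher in stage 1 NKT than CD4SP (1.93 ± 0.15, adjusted p = 0.000119). A second organellar exchanger of that family, X-linked Slc9a7 of the trans-Golgi network, read 112, 72.4 and 124 in Luxoid NKT, 114 and 75.1 in stage 1 NKT, and 34.8 and 22.9 in CD4SP. It was at least 1.22-fold higher in Luxoid NKT than CD4SP (1.83 ± 0.29, adjusted p = 0.00339) and at least 1.13-fold higher in stage 1 NKT than CD4SP (1.71 ± 0.32, adjusted p = 0.00849). Since Slc9a7 entered the test through its NKT arrays alone, these calls are no support. With the Y-linked covariate both differences of Slc9a7 passed (0.00164 and 0.00466). The second was lost without stage 1 NKT array 1 (0.0812) or CD4SP array 2 (0.0767).

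Slc12a2, the sodium-potassium-chloride cotransporter NKCC1 that brings chloride into cells and restores their volume, read 313, 375 and 340 in Luxoid NKT, 429 and 417 in stage 1 NKT, and 167 and 182 in CD4SP. It was 1.96-fold higher in Luxoid NKT than CD4SP (0.97 ± 0.14, adjusted p = 0.00187) and 2.43-fold higher in stage 1 NKT than CD4SP (1.28 ± 0.15, adjusted p = 0.000944), whichever array was left out. All stage 1 NKT arrays lay above all Luxoid NKT arrays, but the difference between them, -0.31 ± 0.14, did not pass (adjusted p = 0.441). The urea carrier Slc14a1 read 643, 459 and 416 in Luxoid NKT, 657 and 681 in stage 1 NKT, and 191 and 336 in CD4SP. Its difference from CD4SP was 0.97 ± 0.26 in Luxoid NKT (adjusted p = 0.0368) and 1.40 ± 0.29 in stage 1 NKT (adjusted p = 0.0134). The first was lost without Luxoid array 1, either stage 1 NKT array or CD4SP array 1 (0.0677 to 0.246) or without the intensity filter (0.0517). The second was lost without CD4SP array 1 or either stage 1 NKT array (0.0792 to 0.0831). Slc9b2, a further sodium-proton exchanger, was 1.89-fold higher in Luxoid NKT than CD4SP (0.92 ± 0.22, adjusted p = 0.0228, but 0.0820 and 0.165 without 1 CD4SP array). The phosphate importer Slc20a1 was the member that fell, 1.54-fold in Luxoid NKT against CD4SP (-0.63 ± 0.17, adjusted p = 0.0338). That call was lost with the mean of its probe sets (-0.35, adjusted p = 0.0707) and without any 1 array other than Luxoid array 2 (0.0504 to 0.167).

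**Figure D3:**
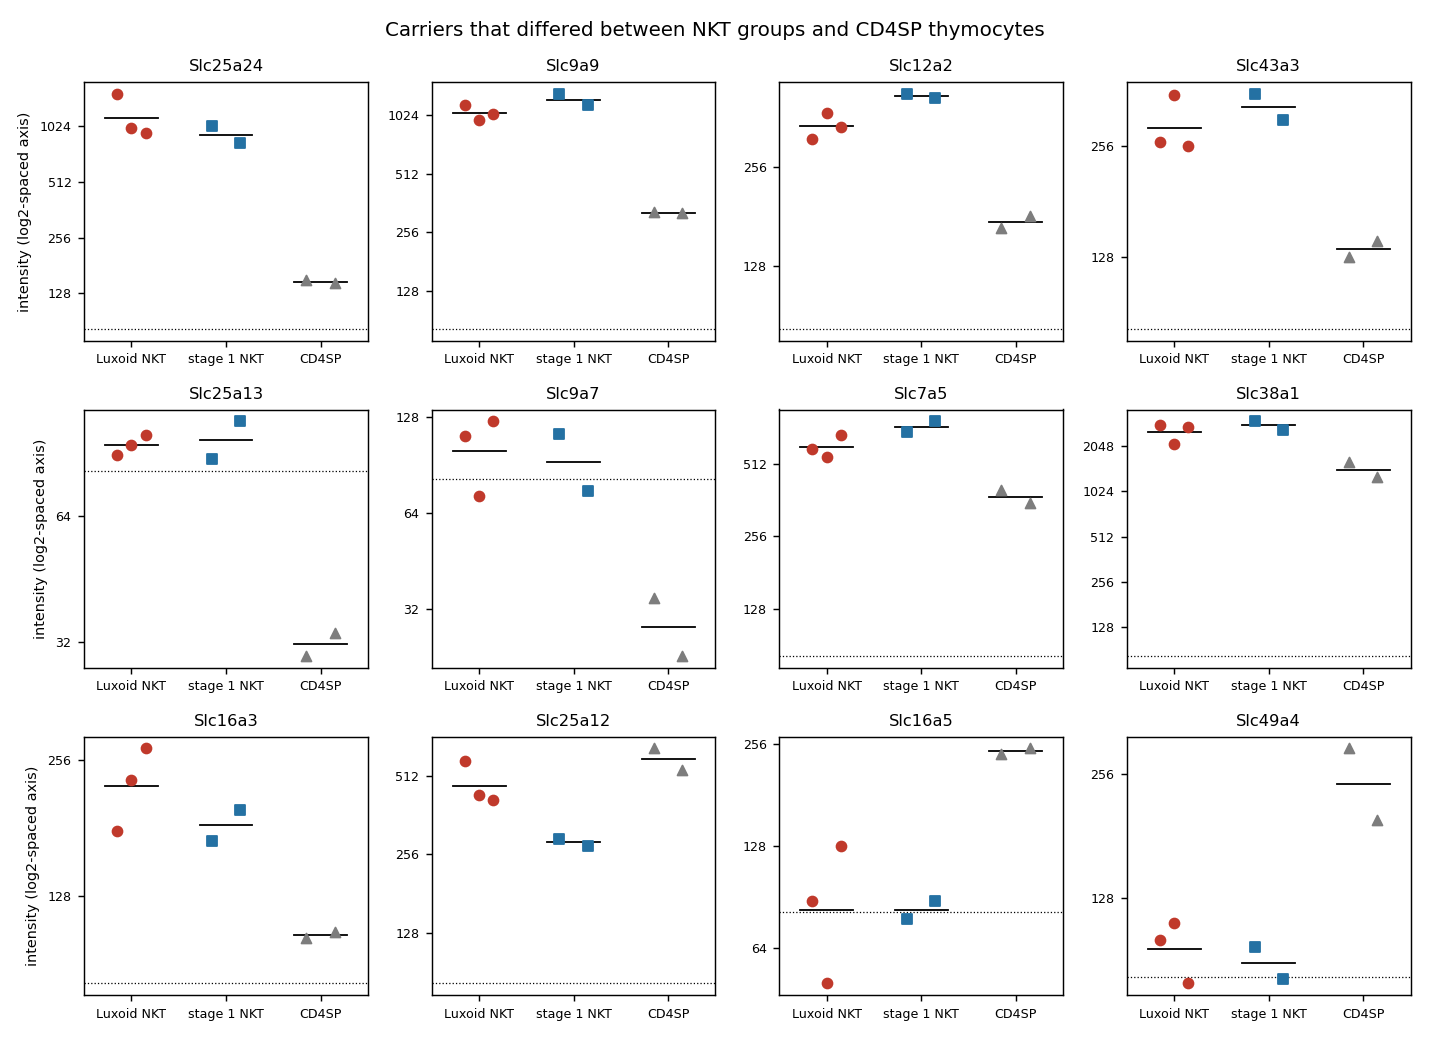
Intensity (vertical axis, log2-spaced, with its own range in each panel) of 12 carriers in every array, with 1 point per array, a black bar at the geometric mean of the group and a dotted line at 82.0. Slc25a24, Slc9a9 and Slc12a2 lie lower in both CD4SP arrays than in all 5 NKT arrays, Slc16a5 and Slc49a4 lie higher, and Slc25a12 lies lowest in stage 1 NKT, at 293 and 276.

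Amino acid carriers are the class most often linked to T cell growth, and 31 of 68 on the array were tested. None passed between the NKT groups, 3 rose in stage 1 NKT minus CD4SP, and 3 rose and 1 fell in Luxoid NKT minus CD4SP. The shares of all genes that rose against CD4SP were 10.8% and 11.3%, and those that fell were 4.08% and 5.51%. Slc7a5 is LAT1, the light chain that imports leucine and other large neutral amino acids. It read 587, 548 and 671 in Luxoid NKT, 694 and 768 in stage 1 NKT, and 398 and 352 in CD4SP. It was 1.61-fold higher in Luxoid NKT than CD4SP (0.68 ± 0.15, adjusted p = 0.0146) and 1.95-fold higher in stage 1 NKT than CD4SP (0.97 ± 0.16, adjusted p = 0.00549). Slc3a2, its heavy chain CD98, read 672, 781 and 564 in Luxoid NKT, 826 and 915 in stage 1 NKT, and 578 and 640 in CD4SP, and passed in no comparison (0.52 ± 0.18 for stage 1 NKT minus CD4SP, adjusted p = 0.0991). The first call of Slc7a5 was lost without either CD4SP array (0.0524 and 0.121) and the second without CD4SP array 2 (0.0502).

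Slc38a1, the glutamine carrier SNAT1, read 2829, 2127 and 2752 in Luxoid NKT, 3006 and 2644 in stage 1 NKT, and 1606 and 1269 in CD4SP. It was 1.79-fold higher in Luxoid NKT than CD4SP (0.84 ± 0.18, adjusted p = 0.0143) and 1.98-fold higher in stage 1 NKT than CD4SP (0.98 ± 0.20, adjusted p = 0.0123). Slc36a4, a carrier of proline and tryptophan, was 1.91-fold and 2.05-fold higher in the same comparisons (0.93 ± 0.26, adjusted p = 0.0440, and 1.04 ± 0.29, 0.0453). The member that fell was Slc38a9, the lysosomal arginine sensor of mTORC1, at 334, 257 and 280 in Luxoid NKT against 505 and 428 in CD4SP (-0.69 ± 0.17, adjusted p = 0.0248). The calls of Slc38a1 were lost without CD4SP array 2 (0.134 for Luxoid NKT, 0.0525 to 0.0991 for stage 1 NKT without that array or either stage 1 NKT array). Those of Slc36a4 were lost without the intensity filter (0.0622 and 0.0644), and without most single arrays: any but Luxoid array 2 for Luxoid NKT (0.0646 to 0.243), and Luxoid array 3, either stage 1 NKT or either CD4SP array for stage 1 NKT (0.0546 to 0.262). That of Slc38a9 was lost with the mean of its probe sets (-0.40, adjusted p = 0.108) and when Luxoid array 2, Luxoid array 3 or a CD4SP array was left out (0.0521 to 0.164).

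Well-known amino acid carriers of T cells that passed in no comparison were the glutamine carrier Slc1a5, the cationic amino acid carrier Slc7a1, the exchanger Slc7a6, the neutral amino acid carriers Slc1a4, Slc38a2 and Slc43a2, and the taurine carrier Slc6a6. Slc1a5 read 549 to 597 in Luxoid NKT, 605 and 543 in stage 1 NKT, and 443 and 413 in CD4SP, where Luxoid NKT minus CD4SP was 0.41 ± 0.13 (adjusted p = 0.0696, and 0.0492 after median centring). Slc7a1 gave 0.45 ± 0.14 (adjusted p = 0.0689) in that comparison and passed with 4 of the alternatives (0.0300 to 0.0476). Slc38a2 read 1261 to 1682 in Luxoid NKT, 1456 and 1321 in stage 1 NKT, and 1662 and 1502 in CD4SP.

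Between the NKT groups 23 of the 31 amino acid carriers had a difference below 0, though none passed. The class median was -0.08, against -0.03 for all genes, and the share of all genes below 0 was not counted. The lowest of all Slc genes, named after its value was seen, was Slc16a10, which carries aromatic amino acids and thyroid hormones. It read 263, 192 and 258 in Luxoid NKT, 496 and 423 in stage 1 NKT, and 338 and 250 in CD4SP. Its difference of -0.96 ± 0.20 (1.95-fold) missed the threshold (adjusted p = 0.0628). It passed with the stricter filter (0.0440), the Y-linked covariate (0.0354) and the pseudocount of 32 (0.0487). Slc15a1, a peptide carrier (-0.76 ± 0.19, adjusted p = 0.114), and Slc39a8, a zinc and manganese importer of the metal class (-0.70 ± 0.15, adjusted p = 0.0747), were chosen in the same way. They did not overlap between the NKT groups either, which held for 26.7% of all genes. These are not the next lowest, since a member of the nucleotide sugar class gave -0.89 and did not pass.

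Carriers of lactate and organic ions changed in both directions. Slc16a3, the lactate exporter MCT4, read 178, 232 and 272 in Luxoid NKT, 169 and 199 in stage 1 NKT, and 103 and 107 in CD4SP. It was 2.13-fold higher in Luxoid NKT than CD4SP (1.09 ± 0.19, adjusted p = 0.00533), whichever array was left out. It was 1.75-fold higher in stage 1 NKT than CD4SP (0.81 ± 0.21, adjusted p = 0.0344), a call lost without any 1 of the stage 1 NKT or CD4SP arrays (0.104 to 0.170). Slc16a1, the lactate and pyruvate carrier MCT1, did not pass (0.48 ± 0.18, adjusted p = 0.122, and 0.60 ± 0.20, 0.0840). The related Slc16a5 and Slc16a6 went the other way. Slc16a5 read 88.1, 50.5 and 128 in Luxoid NKT, 78.1 and 88.1 in stage 1 NKT, and 240 and 249 in CD4SP, 2.94-fold lower in Luxoid NKT (-1.56 ± 0.33, adjusted p = 0.0129) and in stage 1 NKT (-1.56 ± 0.36, adjusted p = 0.0215) than in CD4SP. Slc16a6 was 2.12-fold lower in Luxoid NKT than CD4SP (-1.08 ± 0.22, adjusted p = 0.0125). Without CD4SP array 1 Slc16a5 gave 0.0813 and Slc16a6 0.104 in that comparison, without CD4SP array 2 they gave 0.0988 and 0.0582, and the stage 1 NKT call of Slc16a5 was lost without any 1 of the 4 arrays compared (0.0900 to 0.136).

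Organic ion carriers of this class gave smaller differences. Slc22a15 was 1.63-fold higher in Luxoid NKT than CD4SP (0.71 ± 0.16, adjusted p = 0.0193) and 1.69-fold higher in stage 1 NKT than CD4SP (0.76 ± 0.18, adjusted p = 0.0232). X-linked Slc10a3 was 1.75-fold higher in stage 1 NKT than CD4SP (0.81 ± 0.19, adjusted p = 0.0256). Slc22a2, an organic cation carrier known from kidney, lay under the threshold in all 5 NKT arrays (50.3 to 57.7) and read 86.0 and 109 in CD4SP. It entered the test through its CD4SP arrays alone and had to be lower elsewhere, so its place among the called genes of both comparisons with CD4SP is no support, and its values stand as a description. In stage 1 NKT minus CD4SP the calls of Slc22a15 and Slc10a3 were lost without any 1 of the 4 arrays compared (0.0705 to 0.133 and 0.0536 to 0.152). In Luxoid NKT minus CD4SP, Slc22a15 was lost without Luxoid array 1 or either CD4SP array (0.0504 to 0.135).

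Of 3 nucleoside and nucleobase carriers tested, 2 rose against CD4SP in both NKT groups. The share of all genes that rose was 11.3% in Luxoid NKT and 10.8% in stage 1 NKT. Slc43a3, which carries purine nucleobases, read 262, 352 and 257 in Luxoid NKT, 354 and 302 in stage 1 NKT, and 128 and 142 in CD4SP. It was 2.13-fold higher in Luxoid NKT than CD4SP (1.09 ± 0.18, adjusted p = 0.00380) and 2.42-fold higher in stage 1 NKT than CD4SP (1.28 ± 0.19, adjusted p = 0.00349), whichever array was left out. Slc29a1, the equilibrative nucleoside carrier ENT1, was at least 1.67-fold higher in Luxoid NKT than CD4SP (1.18 ± 0.19, adjusted p = 0.00361) and at least 1.47-fold higher in stage 1 NKT than CD4SP (0.99 ± 0.21, adjusted p = 0.0148). It read 149, 159 and 109 in Luxoid NKT, 132 and 110 in stage 1 NKT, and 63.5 and 58.0 in CD4SP. The gene thus entered the test through its NKT arrays alone, and its calls are no support. Its second difference did not pass without stage 1 NKT array 1 or either CD4SP array (0.0635 to 0.118). Slc29a3, the lysosomal member, was the third and did not pass (-0.36 ± 0.14 for Luxoid NKT minus CD4SP, adjusted p = 0.129).

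Nucleotide sugar carriers supply the Golgi with substrates for glycosylation. Of 22 tested in this class, 2 rose and 1 fell in stage 1 NKT minus CD4SP, and 2 rose and 2 fell in Luxoid NKT minus CD4SP. Among all genes 10.8% and 11.3% rose in these comparisons, and 4.08% and 5.51% fell. Slc35b4, a carrier of UDP-xylose and UDP-N-acetylglucosamine, was 1.99-fold higher in stage 1 NKT, at 449 and 358, than in CD4SP, at 200 and 203 (0.99 ± 0.22, adjusted p = 0.0179). It gave 0.58 ± 0.20 (adjusted p = 0.0834) for Luxoid NKT minus CD4SP. Slc35f2, of the same family, was 2.04-fold higher in Luxoid NKT than CD4SP (1.03 ± 0.15, adjusted p = 0.00215) and 1.91-fold higher in stage 1 NKT than CD4SP (0.93 ± 0.16, adjusted p = 0.00671). Another probe set of Slc35f2 pointed the other way in the second comparison, which was lost with the mean of its probe sets (0.34, adjusted p = 0.106) and without stage 1 NKT array 1 (0.0644) or CD4SP array 2 (0.0502). Slc35d2, a nucleotide sugar carrier, read 143, 153 and 131 in Luxoid NKT, 120 and 152 in stage 1 NKT, and 211 and 237 in CD4SP. It was 1.57-fold lower in Luxoid NKT (-0.66 ± 0.16, adjusted p = 0.0228) and 1.65-fold lower in stage 1 NKT (-0.72 ± 0.17, adjusted p = 0.0239) than in CD4SP. Slc35b4 did not pass without stage 1 NKT array 1 or either CD4SP array (0.0911 to 0.136). Those of Slc35d2 were lost without either CD4SP array, Luxoid array 3 for Luxoid NKT (0.0663 to 0.161 in all) or stage 1 NKT array 1 for stage 1 NKT (0.0712 to 0.166 in all). Slc35b3 (-0.66 ± 0.19, adjusted p = 0.0424) and Slc35e1 (0.48 ± 0.13, 0.0341) also passed for Luxoid NKT minus CD4SP. Without single arrays these gave 0.0573 to 0.215 (any but Luxoid array 3) and 0.0591 to 0.198 (any array), Slc35b3 gave 0.0557 without the intensity filter, and Slc35e1 gave 0.0784 with the mean of its probe sets. The sialic acid carrier Slc35a1 did not pass (0.40 ± 0.15 for stage 1 NKT minus CD4SP, adjusted p = 0.109).

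Among 12 carriers of vitamins, choline and haem, Slc49a4 fell in both NKT groups. Of all genes, 5.51% fell in Luxoid NKT minus CD4SP and 4.08% in stage 1 NKT minus CD4SP. Slc49a4 is thus not read as a result about its class. It read 101, 111 and 79.3 in Luxoid NKT, 97.3 and 81.2 in stage 1 NKT, and 295 and 197 in CD4SP. It was 2.51-fold lower in Luxoid NKT (-1.33 ± 0.22, adjusted p = 0.00395) and 2.71-fold lower in stage 1 NKT (-1.44 ± 0.24, adjusted p = 0.00519) than in CD4SP, and the second did not pass without stage 1 NKT array 2 (0.0501). The folate carrier Slc19a1 did not pass (0.31 ± 0.15 for stage 1 NKT minus CD4SP, adjusted p = 0.225).

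No member of the sugar class passed in any comparison. Of all genes, 1.55% passed between the NKT groups, 14.9% in stage 1 NKT minus CD4SP and 16.8% in Luxoid NKT minus CD4SP. With so few sugar carriers tested, the lack of calls is not read as a trait of the class. Its 11 tested genes had medians of -0.04 for Luxoid NKT minus stage 1 NKT, -0.05 for stage 1 NKT minus CD4SP and -0.06 for Luxoid NKT minus CD4SP. They include Slc2a8, Slc2a9, which carries urate, and Slc37a4, the glucose-6-phosphate carrier of the endoplasmic reticulum. Slc2a9 read 1146 to 1666 in Luxoid NKT, 1566 and 1323 in stage 1 NKT, and 1153 and 1389 in CD4SP, with overlap of all groups. Slc2a6 stayed under the threshold. Neither the 3 carriers of vesicles and lysosomes nor the 2 of fatty acids and other lipids passed, too few to set against these shares. Among the 5 genes kept apart as no carriers, the pseudogene Slc2a4rg-ps was 2.01-fold lower in stage 1 NKT, at 1030 and 699, than in CD4SP, at 1899 and 1534 (-1.01 ± 0.22, adjusted p = 0.0183). It did not pass without stage 1 NKT array 2 or either CD4SP array (0.0550 to 0.118).

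**Figure D4:**
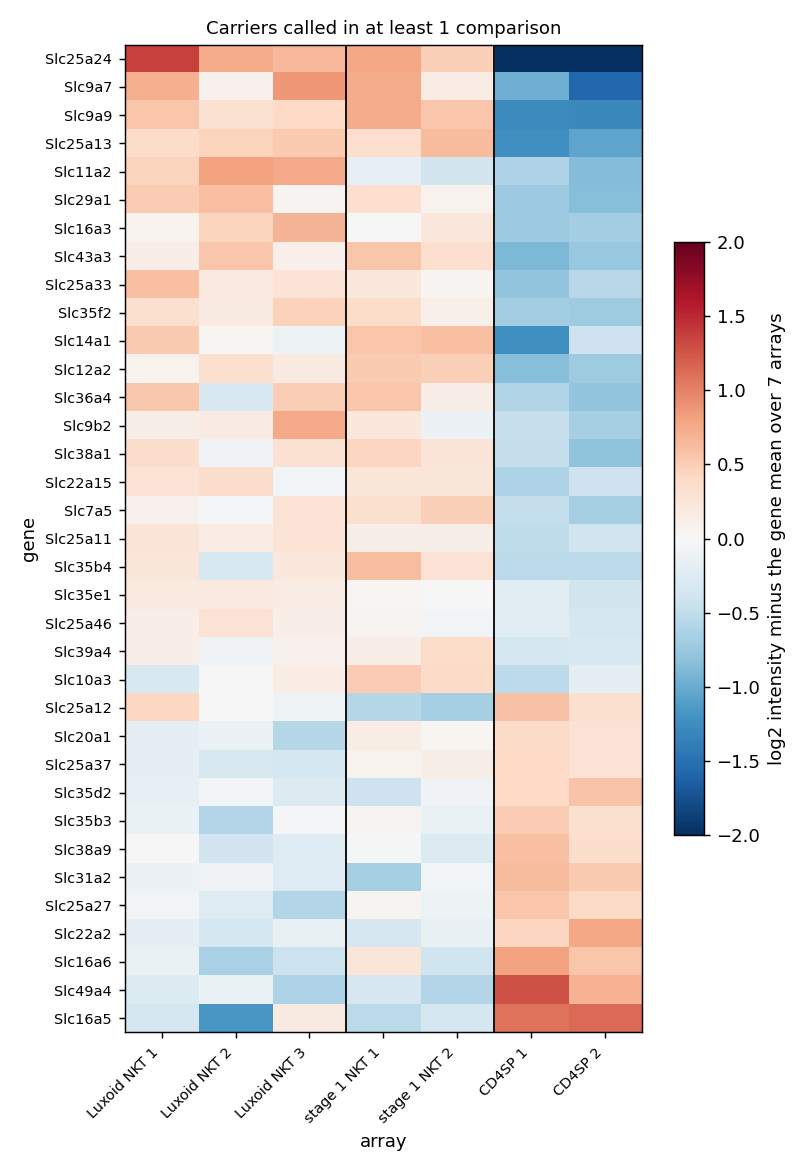
Log2 intensity minus the gene's mean over the 7 arrays (colour, from -2 to 2) for the 35 carriers that passed in at least 1 comparison (rows, ordered by Luxoid NKT minus CD4SP) in every array (columns). The Luxoid NKT and stage 1 NKT columns share their colour in most rows, with Slc25a12 and Slc11a2 as rows in which they differ, and Slc25a24, at the top, has the widest range.

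The threshold decided membership for few genes. Of the 189, 151 were over it in all 7 arrays, and 4 passed through arrays of 1 group alone, 3 of them, Slc22a2, Slc22a23 and Slc7a7, through CD4SP and 1, Slc36a3, through Luxoid NKT. A further 9, among them Slc25a13, Slc9a7, Slc29a1 and Slc39a4, passed through the NKT groups and lay under it in both CD4SP arrays. Genes of either kind had to differ to some extent to be included. Their calls against CD4SP are therefore no support, though the counts and lists above hold those that passed. Just inside were Slc36a3, Slc7a7 and Slc6a13, with a second highest array at 82.1, 84.0 and 85.9. Just outside were Slc5a10, Slc2a12 and Slc6a9, at 81.4, 81.2 and 79.6.

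Genes that act with the carriers were read from lists of their own. Of 12 tested genes of the amino acid response, which restores amino acid supply, 4 rose in stage 1 NKT minus CD4SP and 3 in Luxoid NKT minus CD4SP, where 10.8% and 11.3% of all genes rose. The list medians were 0.37 and 0.28, against 0.06 and 0.02 for all genes. The genes that did not pass in stage 1 NKT minus CD4SP went both ways. Atf4 (-0.15), Ddit3 (-0.27), Trib3 (-0.33) and Ddit4 (-0.10) lay below 0. Sesn2 (0.80), Cebpb (0.45), Cebpg (0.30) and Eif2ak4 (0.00341) lay above it. Mthfd2, of the mitochondrial folate pathway, read 827, 1015 and 1113 in Luxoid NKT, 804 and 859 in stage 1 NKT, and 286 and 315 in CD4SP (1.70 ± 0.16 for Luxoid NKT, adjusted p = 0.000218, and 1.47 ± 0.18 for stage 1 NKT, 0.00101). Psat1 and Shmt2, of serine and glycine metabolism, rose by 1.16 ± 0.22 (adjusted p = 0.00823) and 0.64 ± 0.13 (0.0106) in Luxoid NKT and by 1.32 ± 0.24 (0.00817) and 0.88 ± 0.14 (0.00423) in stage 1 NKT. The 1 gene of this list that passed between the NKT groups was Phgdh, the first enzyme of serine synthesis. It read 1394, 1563 and 1350 in Luxoid NKT, 2380 and 2763 in stage 1 NKT, and 1088 and 1232 in CD4SP (-0.84 ± 0.15 for Luxoid NKT minus stage 1 NKT, adjusted p = 0.0278, and 1.15 ± 0.16 for stage 1 NKT minus CD4SP, 0.00217). The first was lost without any array but Luxoid array 2 (0.0600 to 0.320). The calls of Psat1 were lost without CD4SP array 2 (0.0790 for Luxoid NKT, 0.0602 for stage 1 NKT) or either stage 1 NKT array (0.0682 and 0.0534, for stage 1 NKT), and that of Shmt2 for Luxoid NKT without either CD4SP array (0.0782 and 0.0529).

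Of 23 genes of amino acid sensing by mTORC1, 1 rose and 1 fell in each comparison with CD4SP and none passed between the NKT groups. Among all genes 11.3% rose and 5.51% fell in Luxoid NKT minus CD4SP, and 10.8% and 4.08% in stage 1 NKT minus CD4SP. Rheb rose in stage 1 NKT minus CD4SP (0.78 ± 0.22, adjusted p = 0.0461), a call lost without the intensity filter (0.0623). Castor1 rose in Luxoid NKT minus CD4SP (0.52 ± 0.14, adjusted p = 0.0398), a call lost with the pseudocount of 32 (0.0703). Castor1 lay under the threshold in both CD4SP arrays, at 69.9 and 69.6, so its call is no support. Sesn1, which encodes a sestrin that restrains mTORC1, was lower in Luxoid NKT (-0.69 ± 0.16, adjusted p = 0.0220) and in stage 1 NKT (-0.80 ± 0.18, 0.0195) than in CD4SP. Without CD4SP array 2 it gave 0.174 and 0.129, without Luxoid array 1 it gave 0.0575 in the first, and without either stage 1 NKT array 0.138 and 0.0608 in the second. Txnip, an arrestin that removes glucose carriers from the membrane, was also lower than in CD4SP, by -0.84 ± 0.15 in Luxoid NKT (adjusted p = 0.00574) and -0.84 ± 0.16 in stage 1 NKT (0.0100). It gave 0.0577 without CD4SP array 2 in the first, and 0.0730 and 0.0720 without stage 1 NKT array 2 or CD4SP array 2 in the second. None of 12 ion pump genes passed in any comparison.

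Transporters with other symbols were read in the same way. Of 24 carriers whose symbols do not begin with Slc and a digit, none passed between the NKT groups, where 1.55% of all genes passed. In stage 1 NKT minus CD4SP 4 rose (Sfxn1, Magt1, Nipa2 and Slco4a1), where 10.8% of all genes rose and 4.08% fell. In Luxoid NKT minus CD4SP 3 rose (Nipa2, Slco4a1 and Mtch1) and 1 fell (Slco3a1), where 11.3% rose and 5.51% fell. The organic anion carrier Slco4a1 read 225, 286 and 342 in Luxoid NKT, 450 and 449 in stage 1 NKT, and 151 and 152 in CD4SP. It was higher than in CD4SP in Luxoid NKT (0.89 ± 0.18, adjusted p = 0.0117, but 0.0763 and 0.0821 without 1 CD4SP array) and in stage 1 NKT (1.57 ± 0.20, 0.00138). Of 15 ABC transporters, which use ATP, 7 rose and none fell in stage 1 NKT minus CD4SP, where 10.8% of all genes rose and 4.08% fell. In Luxoid NKT minus CD4SP 5 rose and 2 fell, where 11.3% rose and 5.51% fell. The list medians were 0.18 and -0.11. Abca2, Abcb1a, Abcb1b, Abcb10 and Abcc4 rose in each of these, Abca1 and Abcc1 in the first, and Abca3 and Abcg3 fell in the second. The multidrug exporter Abcb1a gave 0.95 ± 0.14 (adjusted p = 0.00202) in Luxoid NKT, and with Abcg3 (-1.43 ± 0.18, 0.00111) it kept that call whichever array was left out. Every other call of this list against CD4SP was lost without at least 1 array. Between the NKT groups 2 of the 15 fell, where 0.653% of all genes fell. The cholesterol exporter Abca1 read 274, 321 and 216 in Luxoid NKT, 676 and 761 in stage 1 NKT, and 270 and 459 in CD4SP, and Abcg3 read 363, 362 and 293 in Luxoid NKT, 853 and 644 in stage 1 NKT, and 1002 and 820 in CD4SP. Luxoid NKT minus stage 1 NKT was -1.43 ± 0.25 for Abca1 (adjusted p = 0.0283) and -1.13 ± 0.18 for Abcg3 (0.0204). Both were lost without Luxoid array 3 (0.0939 and 0.0700) or stage 1 NKT array 1 (0.185 and 0.200) or 2 (0.320 and 0.0685), and Abca1 also without Luxoid array 1 (0.0596) or with the mean of its probe sets (0.0688).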

How the data were processed

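RNA of 7 sorted samples was extracted, amplified and hybridised to single-colour Affymetrix arrays, per the labels' protocols. The authors deposited intensities made with RMA and Affymetrix Expression Console, per the submitters' processing notes (their versions: not given in the sources used here). That method normalizes arrays by quantiles and compresses differences between dim probe sets. The values were linear (3.08 to 20875), so log2 was taken first. Of 45037 probe sets, 34945 had 1 symbol in the platform annotation, 932 several and 9160 none; 34741 matched RefSeq GRCm38.p6 by gene ID. Per gene the probe set of highest mean was kept, and 10874 of 18193 genes reached 82.0, the 50th percentile of all values, in 2 arrays.

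Group means were fitted over all 7 arrays with limma 3.58.1 (R 4.3.3, lmFit and eBayes, 4 residual and 4.49 prior degrees of freedom), and each of 3 contrasts was adjusted by Benjamini-Hochberg over all genes tested, with a threshold of 0.05. The number of arrays limits the precision, and p-values measure the spread between pooled samples. Values are geometric means or single arrays; errors are SE of the fit. The code was tested on simulated data.

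Carriers were classed by family; 7 symbols that name no carrier were set apart after the symbols were seen. The members, classes and lists were chosen with earlier results of these data known. Named were all genes called between the NKT groups, up to 4 per class with the largest called differences against CD4SP whose groups do not overlap, a set of T cell carriers whatever their test, and some of the called genes of the companion lists; others are marked as chosen after their values were seen. Alternatives were the intensity filter, the mean of probe sets, the variance trend, median centring, a covariate of 6 Y-linked genes, the replicate number as a block, a pseudocount of 32 and leaving out each array. Same-numbered arrays of different groups deviated together (r = 0.334 to 0.491 between their residuals), but the labels do not say what the numbers share.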

Additional observations from a re-analysis of the deposited data

How the results depend on the processing

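The counts of Slc genes that passed (1 for Luxoid NKT minus stage 1 NKT, 26 for stage 1 NKT minus CD4SP, 31 for Luxoid NKT minus CD4SP) moved with several settings. With the filter at the 75th percentile, an intensity of 307, which tests fewer genes, they were 2, 16 and 19. With the replicate block they were 2, 47 and 41, but each pair of groups shares only 2 numbers and arrays numbered 1 also share their sex, so this is not read as a stronger effect. The block ended the calls of Slc11a2 between the NKT groups (adjusted p = 0.0853) and of Slc31a2 in Luxoid NKT minus CD4SP (0.0565), and brought Slc16a10 (0.0180) and Slc25a12 past the threshold between the NKT groups. The first count was 4 with the Y-linked covariate and 2 with the pseudocount of 32. Leaving out each array gave 0 to 1, 8 to 29 and 14 to 33. Without both pools of mixed sex, a setting added after the data were seen that leaves fewer samples, the counts were 0, 9 and 16. Of 26 and 31 calls against CD4SP, 5 and 12 held whichever array was left out. Slc25a13 was among the 5 and the 12, and Slc9a7 and Slc29a1 were among the 12. These 3 genes entered the test through their NKT arrays alone. No gene that passed in a comparison reversed its direction there under any of these settings. Reversals of genes that did not pass were not counted. Of the values of called and named genes, 333 lost the call, 28 gained it and 2336 kept their side of the threshold. For the other settings the counts stayed within 1.5 times, and the cause of the shifts was not tested. Dim probe sets near 82.0 limit the folds given as bounds.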
